A study of Mus musculus with 2 samples.

Results

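The immunoglobulin heavy-chain variable (Ighv) genes were followed through colonic plasma cells and B cells as a readout of which antibody heavy chains these cells made. All 183 genes whose symbol starts with Ighv were taken, of 32228 genes in the count tables. In each plasma cell and B cell, the leading Ighv gene was the gene with at least 3 UMIs (unique molecular identifiers, which count captured transcripts) and more than 50% of the cell's Ighv UMIs. A plasma cell was a cell with at least 2000 UMIs, at least 500 genes, under 5% mitochondrial UMIs and at least 10 UMIs summed over Mzb1, Derl3, Txndc5 and Xbp1. A B cell had the same quality, at least 5 UMIs summed over Cd79a, Cd79b and Ms4a1, and under 1% of its UMIs from Jchain. The WT library held 855 plasma cells and 1137 B cells among 5851 cells of that quality, and the Ring1aKO library held 755 and 3656 among 7660.

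The cells were live CD45+ cells sorted from the colonic lamina propria of DSS-treated C57BL/6 mice, WT or Ring1aKO, aged 8 to 10 weeks. Dextran sodium sulfate (DSS) is a detergent-like polymer that injures the colonic epithelium, so both groups had colitis, and no untreated mice were analysed here. Each genotype had 1 library of 5 pooled mice, made with 3′ end counting on the 10x Genomics platform, so genotype and library cannot be told apart and no test between the genotypes was possible. Intervals below are 95% intervals that cover counting error only, and cells that descend from 1 founder or come from 1 mouse are not independent. Ring1, the gene that the knockout mice lack, was counted in plasma cells at 12.5 CPM (counts of a gene in ppm of all UMIs pooled over those cells) in WT and 9.35 CPM in Ring1aKO, and in B cells at 16.7 and 16.1 CPM; the altered stretch of the gene was not known here, so these 3′ counts did not check the labels.

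Each developing B cell joins 1 Ighv gene to a diversity and a joining segment, and all its descendants keep that choice. Plasma cells are the antibody-secreting progeny, those of the colon mostly make IgA, and many cells that share a heavy and a light chain variable gene can descend from 1 expanded B cell. B cells hold far less immunoglobulin RNA than plasma cells, and 3′ counting reads mostly the constant end of the transcript, so variable segments are captured from few molecules.

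All 183 genes lie on the minus strand of chromosome 12, between 113572927 and 116010093 of GRCm38. The annotation (GENCODE vM21) gives 113 as variable genes and 70 as pseudogenes, which cannot encode a heavy chain. The ends of 6 germline variable segments are shown because these genes carried the differences described below. They are the 3 genes with most plasma cells in each library, with Ighv1-81 in both lists, and Ighv1-20, the leading gene of WT IgG cells. Each runs from a fixed distance before the last in-frame cysteine codon to the end of the variable exon, in GENCODE's transcripts. Capitals mark that codon, which borders the antigen-contacting CDR3 loop, and the bases after it, where joining adds further bases.
Ighv6-6: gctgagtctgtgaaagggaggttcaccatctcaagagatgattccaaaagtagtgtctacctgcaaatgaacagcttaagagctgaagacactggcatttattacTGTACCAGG
Ighv1-81: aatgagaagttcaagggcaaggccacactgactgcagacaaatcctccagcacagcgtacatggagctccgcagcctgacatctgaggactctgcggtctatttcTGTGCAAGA
Ighv7-3: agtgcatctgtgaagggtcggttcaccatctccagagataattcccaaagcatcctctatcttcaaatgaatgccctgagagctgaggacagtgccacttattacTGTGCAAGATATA
Ighv1-26: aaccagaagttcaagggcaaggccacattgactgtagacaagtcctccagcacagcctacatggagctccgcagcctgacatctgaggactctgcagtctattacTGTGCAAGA
Ighv1-15: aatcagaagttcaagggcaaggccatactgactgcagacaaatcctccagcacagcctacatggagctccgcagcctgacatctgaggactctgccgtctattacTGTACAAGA
Ighv1-20: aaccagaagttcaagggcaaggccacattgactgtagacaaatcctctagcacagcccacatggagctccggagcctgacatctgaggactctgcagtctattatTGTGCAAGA
These stretches lie at chr12:114434788-114434901 (Ighv6-6), chr12:115920279-115920392 (Ighv1-81), chr12:114153180-114153297 (Ighv7-3), chr12:114788372-114788485 (Ighv1-26), chr12:114657353-114657466 (Ighv1-15) and chr12:114723772-114723885 (Ighv1-20), all in the variable exon. Over the first 108 bases, the 4 Ighv1 genes shared between 89.8% of positions (Ighv1-81 and Ighv1-20) and 95.4% (Ighv1-81 and Ighv1-15). Ighv6-6 shared 76.9% with Ighv7-3 and 55.6% with Ighv1-26.

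Such likeness bears on the counts, since a read that matches several genes equally well is usually not assigned to one. Of the 183 genes, 65 shared at least 1 stretch of 90 bases with another Ighv gene. These led 173 of the 706 WT and 181 of the 476 Ring1aKO plasma cells with a leading gene, a larger part in Ring1aKO. In 3 genes over 50% of such stretches were shared, and these led 5 and 8 cells. Ighv6-6, Ighv1-81 and Ighv1-15 shared none, Ighv1-26 shared 11.5% (with Ighv1-34 among others), and Ighv1-20 shared 18.4% with Ighv1-37, so counts of Ighv1-26 and Ighv1-20 are less certain. Somatic mutation of rearranged genes can also move reads between close family members, and its part was not tested.

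A leading Ighv gene was found in 706 of 855 WT plasma cells (82.6%, 79.9 to 85.1) and in 476 of 755 Ring1aKO plasma cells (63.0%, 59.5 to 66.5), a difference of -19.5 percentage points (-23.8 to -15.2). The median plasma cell held 19 Ighv UMIs in WT and 5 in Ring1aKO, although the median total was 27260 and 33859 UMIs. Summed Ighv genes made up 1040 CPM of WT and 237 CPM of Ring1aKO plasma cells. The same rule found no leading gene in 1459 WT or 1537 Ring1aKO T cells, which allows a share of up to 0.206% and 0.195% (3 cells of the total). Most calls in plasma cells faced no second gene: 512 of the 706 WT leaders and 359 of the 476 Ring1aKO leaders were the only Ighv gene of their cell. With at least 80% of Ighv UMIs asked of the leader, 74.9% of WT and 54.4% of Ring1aKO plasma cells had one. The leader had a median of 24 UMIs in WT and 8 in Ring1aKO, and at most 564 and 117. At the limit of the rule, 16 and 37 cells were led by exactly 3 UMIs, 39 and 109 cells held only 1 or 2 Ighv UMIs, and 10 and 15 cells held at least 3 but no gene above 50%.

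Other receptor variable genes were also lower against their constant genes in Ring1aKO, by differing amounts. Per 100 UMIs of heavy-chain constant genes, plasma cells held 0.743 Ighv UMIs in WT and 0.145 in Ring1aKO, 5.12-fold apart. In B cells the same values were 1.40 and 0.313, 4.46-fold apart. Kappa variable (Igkv) genes against the kappa constant gene differed 4.88-fold in plasma cells, and the beta-chain variable (Trbv) genes of T cells, a receptor that plasma cells do not make, differed 5.91-fold (2.53 against 0.428 per 100 constant UMIs). Lambda variable (Iglv) genes in plasma cells differed 1.47-fold and alpha-chain variable (Trav) genes in T cells 1.57-fold. In cell-free barcodes, those with under 100 UMIs, the difference was 1.74-fold for Ighv (0.172 and 0.0991), and Igkv stood at 0.173 and 0.0883. The study's methods give the same 3′ kit and paired-end read length for both libraries, and the part of library preparation in these differences was not tested. When WT Ighv UMIs were thinned at random to the Ring1aKO ratio, a choice made after seeing the data, 57.1% of WT plasma cells kept a leading gene, and the difference turned to 5.97 percentage points higher in Ring1aKO. The lower share of plasma cells with a leading gene in Ring1aKO therefore held for the counts as deposited and not at a matched variable-to-constant ratio.

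**Figure D1:**
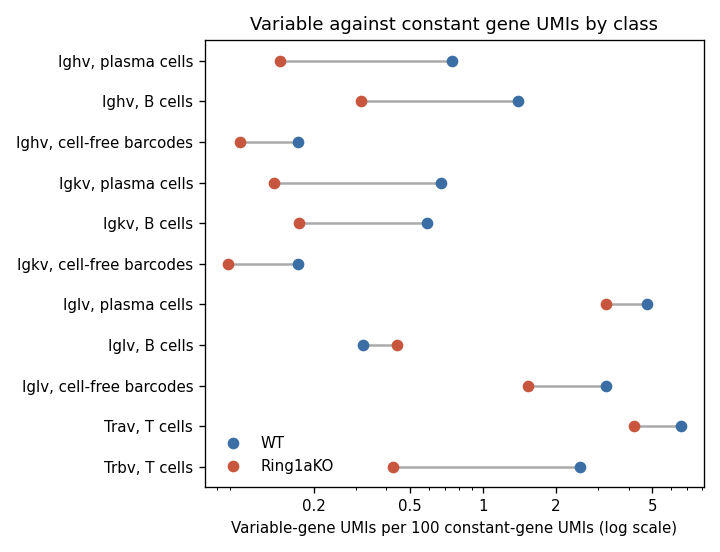
UMIs of variable genes per 100 UMIs of the constant genes of the same chain (log axis), by gene group and cell class or cell-free barcodes, with 1 point per library and a line joining both libraries. Ring1aKO lies lower for Ighv, Igkv, Trbv, Trav and, in plasma cells, Iglv, from 0.743 to 0.145 for Ighv in plasma cells; only Iglv in B cells, from 31 and 143 UMIs, has the opposite order.

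Some cells that met the plasma rule held little immunoglobulin RNA. In 111 WT (13.0%) and 108 Ring1aKO (14.3%) cells, immunoglobulin constant genes and Jchain made up under 10% of UMIs. A leading Ighv gene was found in 3 and 0 of these. Sdc1, the surface proteoglycan of mature plasma cells, was detected in 16.2% and 13.9% of them and in 95.4% and 92.3% of the other plasma cells, while Ms4a1, the B-cell surface protein CD20, was detected in 65.8% and 76.9% of them. Among the 744 and 647 cells with at least 10%, a leading gene was found in 94.5% and 73.6%. The 10 plasma-cell markers summed to 55187 and 54466 CPM in plasma cells against 669 and 791 CPM in T cells. The 8 B-cell markers summed to 5479 and 6024 CPM in B cells against 31.0 and 69.4 CPM in T cells, with no marker at 0 in its class. Both lists include the genes that defined the class, and T cells had to fail both rules, so these contrasts were partly set in advance. Jchain alone made up 50263 and 50149 CPM of the plasma-cell sums. Macrophage markers summed to 377 and 192 CPM and T-cell markers to 67.8 and 93.3 CPM in plasma cells. Leaving out cells with at least 3 UMIs summed over either list gave 83.5% and 66.0% with a leading gene. Cells below that limit stayed in. Neutrophil markers summed to 118 and 372 CPM, mast-cell markers to 4.98 and 21.8 CPM, and germinal centre and cycling markers to 211 and 104 CPM. Plasmacytoid dendritic cell markers summed to 251 and 165 CPM, most of it Tcf4 (209 and 129 CPM), while Siglech was detected in 1.87% and 1.59% of plasma cells. The part of cells with any of these markers in the results was not tested. No cell barcode was shared between the libraries among plasma or B cells, and 80 WT and 107 Ring1aKO cells that met both rules were counted as plasma cells.

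About as many genes led plasma cells in both libraries, from unequal numbers of cells, but they were weighted differently. The leading genes numbered 63 in WT and 62 in Ring1aKO, 53 of them in both, 10 in WT alone and 9 in Ring1aKO alone. Genes that led only 1 cell of a library numbered 10 in WT and 14 in Ring1aKO, among 706 and 476 cells with a leader. A gene found in 1 library alone is therefore not shown to be missing from the other. The other 111 genes led no plasma cell in either library, 43 of them annotated as variable genes rather than pseudogenes. The pseudogenes Ighv1-2 and Ighv1-14 led 1 WT cell each. The usage of both libraries overlapped by 53.1%, as the sum over genes of the smaller of the 2 shares, and 5 genes stood among the 10 most used in both.

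Ighv6-6 was the most used gene in WT, leading 115 cells (16.3%, 13.6 to 19.2), against 21 cells (4.41%, 2.75 to 6.67) in Ring1aKO. Ighv1-81 led 81 WT cells (11.5%) and 23 Ring1aKO cells (4.83%), and Ighv7-3 led 56 (7.93%) and 22 (4.62%). Ighv1-76 led 51 WT cells (7.22%, 5.43 to 9.39) and 11 Ring1aKO cells (2.31%, 1.16 to 4.10). These 4 genes led WT usage, and by cells each held a smaller share in Ring1aKO. Ighv6-6, Ighv1-81 and Ighv1-76 were also named as the 3 genes with the largest fall in share, so their direction was set by that choice. With each heavy and light pair counted once, the differences shrank to -0.42 points for Ighv6-6 (1.98% and 1.56%), -1.54 for Ighv1-81, -1.41 for Ighv7-3 and -2.40 for Ighv1-76, all with intervals that held 0. Pairs counted once, here and below, let kappa or lambda genes lead (202 WT and 128 Ring1aKO pairs). By that rule lambda gene Iglv1 led 28.1% of WT and 68.1% of Ring1aKO light chains, which can merge pairs that differ in their kappa gene. Kappa genes only gave 207 and 173 pairs, and counting those once was not tried. The largest kappa pair of each library was itself an Ighv6-6 pair, with 107 WT and 19 Ring1aKO cells. Leaving it out took away most Ighv6-6 cells by construction, so the remaining -0.90 points (-2.21 to 0.42) is no check on the Ighv6-6 difference. Ighv3-6 held nearly the same share in both, 4.25% and 4.20%, and Ighv1-64 led 22 cells in each (3.12% and 4.62%, with overlapping intervals).

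Ighv1-26 was the most used gene in Ring1aKO, with 37 cells (7.77%, 5.53 to 10.6) against 16 in WT (2.27%, 1.30 to 3.65). Ighv1-15 led 23 Ring1aKO cells (4.83%, 3.09 to 7.16) and 0 of 706 WT cells, which allows up to 0.425%. Its UMIs in plasma cells were 3 in WT and 552 in Ring1aKO. Ighv1-9 led 2 WT cells (0.283%) and 19 Ring1aKO cells (3.99%). By cells, these 3 genes held a larger share in Ring1aKO, where the Ighv group as a whole had fewer UMIs. They were named as the 3 genes with the largest rise in share, so this direction was set by the choice. With each heavy and light pair counted once, Ighv1-15 differed by 2.34 points (-0.08 to 6.66), Ighv1-9 by 1.35 (-1.62 to 5.73), and Ighv1-26 turned lower in Ring1aKO (5.45% of WT and 3.91% of Ring1aKO pairs, a difference of -1.54 points). These values too rest on the rule that let lambda genes lead. Further genes were likewise picked because their values differed: Ighv1-12 led 5 and 20 cells, Ighv1-59 led 3 and 19 and Ighv1-39 led 4 and 18, whereas Ighv10-1 led 19 and 1, Ighv1-20 led 16 and 0 and Ighv2-9 led 10 and 0.

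**Figure D2:**
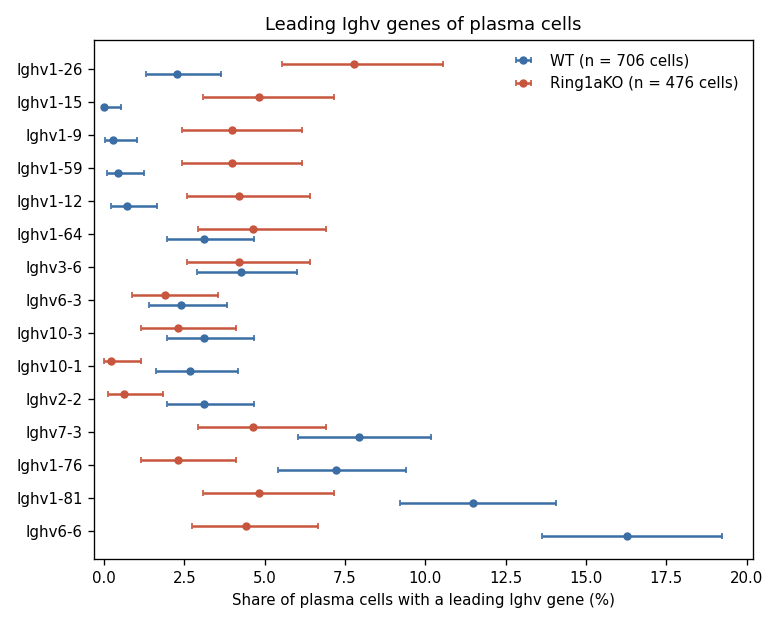
Share of plasma cells with a leading Ighv gene that each gene led (horizontal axis, %), for the 15 genes among the 10 most used in either library, ordered by the difference between libraries; points are shares and bars exact 95% binomial intervals, which cover counting error only. Ighv6-6 (16.3% and 4.41%) and Ighv1-81 stand apart on the WT side, and Ighv1-26 and Ighv1-15 on the Ring1aKO side.

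Usage was more even in Ring1aKO. The inverse Simpson number, the number of equally used genes that would give the same chance that a pair of cells share a gene, was 16.5 (14.4 to 18.9) in WT and 32.5 (28.9 to 36.5) in Ring1aKO, 0.98 higher on the log2 scale. The 5 most used genes led 47.2% of WT cells and 26.7% of Ring1aKO cells. The number of genes alone differed little: at an equal draw of 476 cells, 58.4 genes would be expected in WT against 62 in Ring1aKO. The larger difference was in the weight of the top genes. An expected number at an equal draw also follows evenness, so it did not settle how many genes each library used. Without the largest pair of heavy and kappa genes in each library, a choice made after seeing the data, the inverse Simpson numbers were 20.8 and 31.9, and the log2 difference fell to 0.61. Each heavy and light pair counted once, with lambda genes allowed to lead, gave 45.01 and 65.5, a log2 difference of 0.54.

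**Figure D3:**
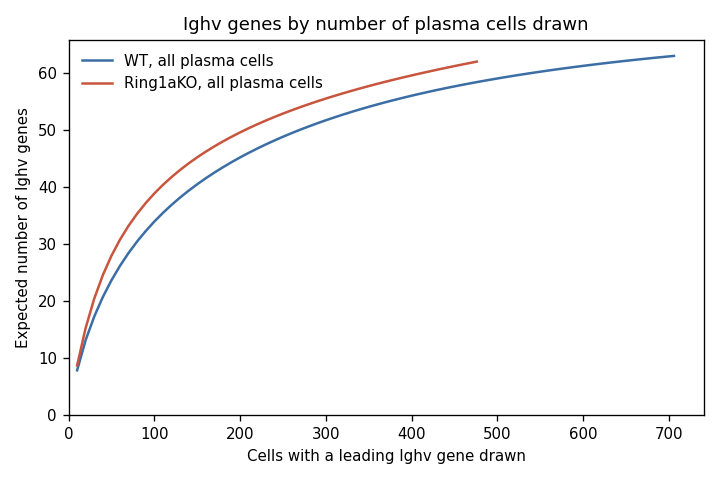
Expected number of Ighv genes (vertical axis) when a given number of cells with a leading gene (horizontal axis) is drawn from the plasma cells of each library, by the hypergeometric formula. The Ring1aKO curve lies above that of WT throughout, and at 476 cells the curves reach 62 and 58.4 genes.

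By family, the number after Ighv in the symbol, the largest difference was in Ighv1. This family, the largest of the locus with 92 of the 183 genes, led 307 WT cells (43.5%, 39.8 to 47.2) and 306 Ring1aKO cells (64.3%, 59.8 to 68.6), 20.8 percentage points more in Ring1aKO. With each heavy and light pair counted once, lambda genes allowed to lead, the difference was 6.56 points (-4.35 to 17.1), from 55.9% to 62.5%. Counting error does not separate it from 0. Ighv6 made up 18.7% and 6.30%, from Ighv6-6 (115 and 21 cells) and Ighv6-3 (17 and 9 cells). Ighv8 was larger in Ring1aKO, with 5 WT cells (0.708%) and 12 Ring1aKO cells (2.52%), a difference of 1.81 points (0.387 to 3.69). Ighv10 (5.81% and 2.52%), Ighv2 (5.52% and 2.73%) and Ighv9 (4.11% and 1.26%) were also smaller in Ring1aKO, while Ighv3 (4.82% and 6.93%) and Ighv7 (8.36% and 6.09%) differed by less than their counting intervals allow to separate. Ighv11, Ighv12, Ighv15 and Ighv16, families of 1 to 3 genes, led no plasma cell.

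**Figure D4:**
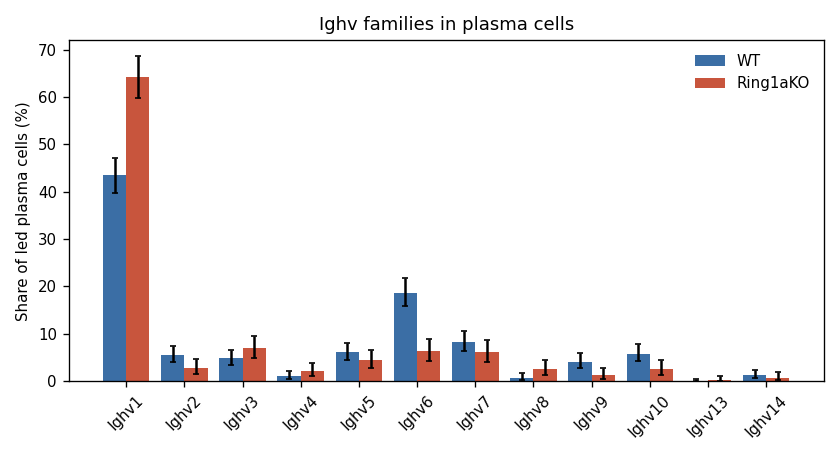
Share of plasma cells with a leading gene (vertical axis, %) by Ighv family, as bars for each library with exact 95% binomial intervals that cover counting error only. Ighv1 reaches 43.5% in WT and 64.3% in Ring1aKO, and Ighv6 18.7% and 6.30%; families without a cell in either library are left out.

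Position in the locus gave differences of up to -7.91 percentage points. With the 183 genes cut into 3 segments of 61 genes by their order from the diversity segments, the nearest segment held 31.0% of WT and 23.1% of Ring1aKO leading cells, the middle one 36.4% and 41.0%, and the farthest 32.6% and 35.9%. Cells of both libraries thus used the whole length of the locus.

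Some of the most used heavy-chain genes, Ighv6-6 foremost, had a different main kappa partner in each library, and others did not. Lambda gene Iglv1 led the light chain in 28.1% of WT and 68.1% of Ring1aKO plasma cells with a leading light-chain gene, and in 73.8% and 86.9% of those the kappa constant gene outnumbered the lambda constant genes. After seeing this, pairs were read from kappa genes only, in cells with more Igkc than lambda constant UMIs, which gave 624 paired WT and 404 paired Ring1aKO cells in 207 and 173 pairs. In WT, Ighv6-6 went with Igkv6-20 in 107 of 111 paired cells, 17.1% (14.3 to 20.3) of all paired cells, and all 107 were IgA cells. In Ring1aKO, Ighv6-6 went with Igkv4-70 in 19 of 21 cells, and none carried Igkv6-20. The same heavy-chain gene thus led with a different kappa partner in each library.

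Other WT genes divided between a few partners. Ighv1-81 went with Igkv1-110 in 34 and with Igkv1-117 in 32 of 81 cells, and Ighv1-76 with Igkv5-39 in 22 and Igkv3-10 in 14 of 51. In Ring1aKO, Ighv1-81 went with Igkv1-110, Igkv10-96 and Igkv8-19 in 4 of 22 cells each and with Igkv1-117 in 3, and Ighv1-76 with Igkv10-94 in 5 of 8. Ighv7-3 went with Igkv1-110 in 13 and Igkv8-24 in 10 of 35 WT cells, and in Ring1aKO with Igkv17-121 in 8 of 18. In Ring1aKO, Ighv1-15 went with Igkv2-112 in 14 of 20 cells, Ighv1-26 with Igkv4-72 in 13 of 31, Ighv1-64 with Igkv4-55 in 10 of 21 and Ighv1-9 with Igkv6-23 in 10 of 16. Ighv1-59, named after its values were seen, went with Igkv6-23 in 17 of 17. Ighv3-6, whose share was alike in both libraries, had the same largest partner in both, Igkv8-30, in 6 of 29 WT and 6 of 18 Ring1aKO cells. Junction sequences were not read from these counts, so a shared pair is not shown to be 1 clone.

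**Figure D5:**
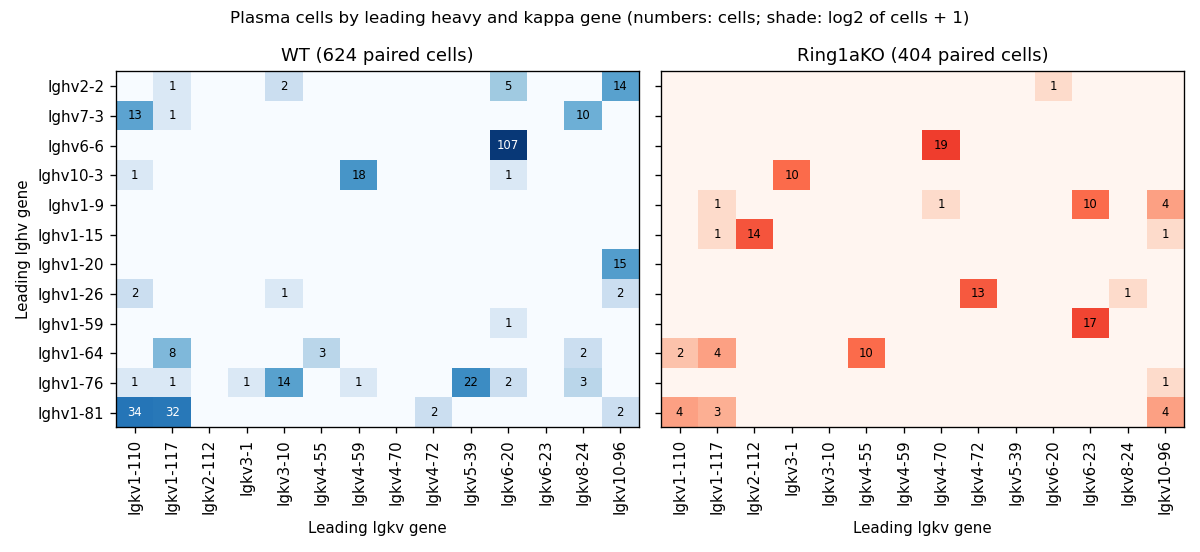
Plasma cells by leading Ighv gene (vertical axis) and leading Igkv gene (horizontal axis) in each library, for genes in the 17 pairs with at least 10 cells; numbers are cells and shading is log2 of cells plus 1. The filled cells of the WT panel, led by the 107 cells of Ighv6-6 with Igkv6-20, and those of the Ring1aKO panel, led by 19 cells of Ighv6-6 with Igkv4-70, fall mostly in different places. Pairs were picked by their number of cells within a library, 10 in WT and 7 in Ring1aKO, so this separation was partly set by that choice.

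Pairs held by at least 5 cells took in 56.9% (52.9 to 60.8) of kappa-paired WT cells and 46.8% (41.8 to 51.8) of Ring1aKO cells, a difference of -10.1 percentage points (-16.3 to -3.86). The rule first set, which let lambda genes lead, gave 58.6% and 56.6%, -2.06 points (-8.39 to 4.23). A limit of 5 cells is reached more easily among more cells. With WT drawn down to the 404 kappa-paired cells of Ring1aKO, 49.6% would be expected in WT, a difference of -2.77 points, and by the rule with lambda genes 50.04% against 56.6%, a difference of 6.52 points, so the libraries were not shown to differ in this share. Of the kappa pairs, 33 were found in both libraries, 15.9% of the WT pairs and 19.1% of the Ring1aKO pairs, and 1 pair had at least 5 cells in both. With lambda genes allowed, 44 pairs were found in both (21.8% and 34.4%), 6 of them with at least 5 cells in both.

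IgA cells set the plasma cell usage, as they made up 780 of 855 WT (91.2%) and 644 of 755 Ring1aKO (85.3%) plasma cells. A leading gene was found in 85.8% and 68.0% of them. Their inverse Simpson numbers were 15.4 and 31.8, close to those of all plasma cells. All cells led by Ighv6-6 (115 and 21), Ighv1-76 (51 and 11), Ighv1-9 (2 and 19) and Ighv1-15 (23, in Ring1aKO) were IgA cells, while Ighv1-81 led 5 WT and 2 Ring1aKO IgG cells and Ighv1-26 led 4 Ring1aKO IgG cells.

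IgG cells with a leading gene were few, 33 of 45 in WT and 35 of 70 in Ring1aKO. Their genes overlapped between the libraries by 20.5% and with the IgA cells of the same library by 26.6% in WT and 35.0% in Ring1aKO. Ighv1-20, seen to stand out here, led 7 WT IgG cells (21.2% of 33), all of isotype Ighg1, and 9 WT IgA cells. In the 15 of its 16 cells with a kappa leader, 8 IgA and 7 IgG, the partner was Igkv10-96 each time. The same heavy and kappa pair was thus found in both isotypes of the WT library. Ighv1-12, picked the same way, led 4 IgG cells of isotype Ighg2b and 1 IgA cell in WT, and 19 IgA and 1 IgG cell in Ring1aKO. Inverse Simpson numbers of IgG cells were 12.3 (7.00 to 21.5) and 19.2 (12.9 to 28.6), which counting error does not separate.

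In B cells the rule gave almost no leading gene. It found 6 of 1137 WT B cells (0.528%, 0.194 to 1.15) and 0 of 3656 Ring1aKO B cells, which allows up to 0.0821%. The 6 genes, each in 1 cell with 3 to 5 UMIs, were Ighv5-16, Ighv2-9-1, Ighv5-2, Ighv5-17, Ighv1-26 and Ighv1-85. In plasma cells, Ighv5-16 led 9 WT and 1 Ring1aKO cells, Ighv2-9-1 led 4 and 3, Ighv5-17 led 15 and 6 and Ighv1-85 led 2 and 1. Yet B cells did hold Ighv RNA: at least 1 Ighv UMI was found in 29.6% of WT and 7.93% of Ring1aKO B cells (median depth 4274 and 4416 UMIs), against 2.26% and 1.43% of T cells (6004 and 5867 UMIs), which should lack it. In CPM, B cells stood at 70.1 and 16.1 for summed Ighv genes and T cells at 3.46 and 2.05. B-cell usage was therefore described from the summed 432 WT and 309 Ring1aKO Ighv UMIs, not from cells.

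B-cell Ighv UMIs were spread more evenly than plasma cell usage, by a wide margin in WT and a smaller one in Ring1aKO. They fell on 82 genes in WT and 73 in Ring1aKO, 65 in both, of which 21 genes seen in either library led no plasma cell. The inverse Simpson numbers were 51.5 (45.4 to 58.4) and 45.5 (37.9 to 54.6), -0.18 on the log2 scale, with overlapping intervals, against 16.5 and 32.5 in plasma cells. Ighv1-26 was first in both libraries, with 24 and 23 UMIs (5.56% and 7.44%). Ighv6-6, first in WT plasma cells, had 2 of 432 WT UMIs in B cells (0.463%), and Ighv1-15 had 2 UMIs there (0.463%) and 2.91% of the Ring1aKO B-cell UMIs. The Ighv1 family took 56.9% and 62.5%. The usage of B cells overlapped by 66.2% between libraries, against 53.1% for plasma cells counted by cell, and overlapped with plasma cells of the same library by 46.6% in WT and 61.4% in Ring1aKO. With plasma cells of the other library it was 54.2% for WT B cells, above the value in their own library, and 45.9% for Ring1aKO B cells. A summed UMI and a called cell are different units, and UMIs of 1 cell are not independent.

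Ighv levels were also compared gene by gene, from UMIs summed over a class and scaled to its total, for genes whose UMIs in both libraries came to 100 or more. In plasma cells, 44 of the 183 Ighv genes passed this limit. Of these, 7 were at least 2-fold higher in Ring1aKO (15.9%) and 29 at least 2-fold lower (65.9%), where over all 9854 genes 0.69% were higher and 8.72% lower. The median log2 ratio of Ring1aKO over WT was -2.07 over these Ighv genes and -0.34 over all genes. All 7 higher genes were of family Ighv1, which holds 92 of all 183 genes, but its share of the 44 genes counted is not given here. A gene could pass the limit of 100 UMIs through 1 library alone, as Ighv1-15 did in Ring1aKO and Ighv5-16 in WT. Which genes were counted was thus not independent of their direction. Among them were Ighv1-15 (log2 ratio 7.08, 5.94 to 9.78, from 3 and 552 UMIs) and Ighv1-9 (2.83, 2.24 to 3.60, from 22 and 166 UMIs). Other genes of this family were far lower, such as Ighv1-20 (-5.52), Ighv1-76 (-4.95) and Ighv1-81 (-2.78), so the family did not rise as a whole. Ighv5-16 stood lowest, at -6.45 (-8.12 to -5.54), from 600 and 6 UMIs, and Ighv6-6 stood at 160 CPM in WT and 8.31 in Ring1aKO. These intervals treat UMIs as independent, although the UMIs of a gene can come from few cells. Ighv5-16 led only 9 WT cells and 1 Ring1aKO cell. By cells its share differed by -1.06 points (-2.21 to 0.0775), an interval that held 0. Scaled to summed Ighv UMIs instead, a choice made after seeing the data, 15 were higher and 11 lower, so the direction of the group as a whole rested on its lower total.

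In B cells no Ighv gene reached 100 UMIs, so none was counted as higher or lower, where over all 9033 genes 0.542% were higher and 3.25% lower. With at least 1 UMI as the limit, 69 of 90 Ighv genes were at least 2-fold lower and none higher. At that limit 17.2% of all 17310 genes were lower and 2.06% higher. Each Ighv gene rests on few UMIs, 1 UMI was added to each sum, and B cells held 6162147 UMIs in WT and 19160851 in Ring1aKO. A gene with 1 UMI in each library, such as Ighv3-1, thus stood at -1.64 on the log2 scale. Ighv2-9, with 0 and 3 UMIs, stood at only 0.363, so the lack of higher genes at this limit says little.

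Genes that make and mutate antibody genes were past 2-fold about as rarely as genes in general. Of 19 genes of recombination, somatic mutation and class switching, 14 had at least 100 UMIs in plasma cells. None was 2-fold higher and 1 was lower (0.69% and 8.72% over all genes), Dclre1c, which encodes the nuclease Artemis that opens hairpin ends in recombination (168 and 69 UMIs, log2 ratio -1.30). In B cells 12 of the 19 were counted and none passed 2-fold in either direction (0.542% higher and 3.25% lower over all genes), though Dclre1c came close at -0.97. Rag1 and Rag2, which cut the locus in developing B cells, had 0 UMIs in plasma cells. None of 10 factors known to act on variable gene transcription, among them Pou2f2 and Pou2af1 of the octamer system, passed 2-fold in plasma or B cells. With so few genes per list and such small shares over all genes, these counts say little about the lists. The median log2 ratios of the first list were -0.46 in plasma and -0.41 in B cells, and those of the second -0.23 and -0.09, against -0.34 and -0.16 over all genes.

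Barcodes with under 100 UMIs, which hold RNA released from broken cells, carried the Ighv pattern of their own library. They held 1222 Ighv UMIs in WT and 565 in Ring1aKO. The most frequent were Ighv6-6 (14.1%), Ighv1-81 (13.2%) and Ighv1-76 (10.1%) in WT, and Ighv1-26 (12.2%), Ighv1-15 (7.79%) and Ighv1-81 (6.02%) in Ring1aKO. Their usage overlapped with the plasma cells of the same library by 80.6% and 81.4%, and with those of the other library by 48.5% (WT barcodes) and 50.03% (Ring1aKO barcodes).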

How the data were processed

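The values were UMI counts per gene and barcode, deposited by the authors as raw counts for each library without normalization. The study's methods name Cell Ranger for alignment and counting; the matrices' headers name a different release from the study's methods, and the submitters' processing notes list Cell Ranger 6.0.2 and mm39, so the build used could not be settled. All 183 Ighv identifiers matched GENCODE vM21 (GRCm38), the source of coordinates and sequences. The libraries held 74414511 (WT) and 81862096 (Ring1aKO) UMIs.

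Cells, leading genes and pairs were called with Python 3.11.15, numpy 2.4.6, pandas 2.3.3 and scipy 1.17.1, and the callers were tested on simulated data. A cell that met both class rules counted as a plasma cell, and a T cell had at least 5 UMIs of Cd3d, Cd3e and Cd3g. No doublet caller was run. An alternative left out cells with at least 3 UMIs summed over the T-cell markers or over the macrophage markers. An isotype was called from at least 10 heavy-chain constant UMIs, with more than 50% of 1 class. Shares have exact Clopper-Pearson intervals, differences Newcombe intervals and CPM ratios, with 1 UMI added, exact conditional intervals. No test across libraries was made. Named genes were the 5 leading most cells in each class and library, the 3 with the largest rise and fall in share, and the 3 with most cell-free UMIs. Values of single list members beyond those named are not reported here. Members, lists and rules were chosen with earlier results of these data known.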

Additional observations from a re-analysis of the deposited data

Results flagged for a closer look

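In Ring1aKO, 9 of 1712 cells that met neither the plasma nor the B nor the T rule (0.526%, exact 95% interval 0.241 to 0.996) had a leading Ighv gene, above the 0.195% that 0 of 1537 T cells allows. By the exact 95% interval, those T cells allowed up to 0.240%. Ighv1-81 led 6 of them and Ighv9-3 led 3, with 3 to 6 UMIs each. All 9 were IgA-dominant, with 26.3% to 61.1% of their UMIs from immunoglobulin constant genes, and held 2 to 9 UMIs of the plasma-cell markers, under the limit of 10. In WT, 2 of 2400 such cells had a leading gene, Ighv1-85 and Ighv6-6. The part of released RNA in these cells was not tested.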

How the results depend on the processing

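No paired analysis was possible because only 1 library stood for each genotype. Differences are Ring1aKO minus WT, and the spread used to judge a change was the counting interval of the value reported. Numbers of Ighv genes past 2-fold had no such interval and were judged by a fixed ratio to the number reported. Cause of the changes was not tested. The share of plasma cells with a leading gene differed by -25.7 points at 5 UMIs for the leader, -41.0 at 10, and turned to 5.97 with WT Ighv UMIs thinned to the Ring1aKO ratio. That of B cells was -0.0880 points at 5 UMIs, at 2000 UMIs per cell and with the cell-free profile subtracted, 0 at 10 UMIs, and -19.9 with leaders from 1 UMI. The log2 difference in diversity, for all and for IgA plasma cells, was 1.37 and 1.41 at 10 UMIs, 1.24 and 1.32 at 2000 UMIs per cell, 1.29 and 1.36 with WT thinned, 0.61 and 0.65 without the largest kappa pair, and 0.54 and 0.56 with each pair counted once; it stayed above 0 in each, though at 2000 UMIs per cell, where 3.84% of Ring1aKO plasma cells kept a leader, the interval for all plasma cells (-0.0098 to 2.49) held 0. Overlap of plasma cell usage was 46.5% at 10 UMIs, 39.6% at 2000 UMIs per cell (60.0% in B cells), 48.3% with WT thinned, 47.3% by Ighv UMIs and 69.2% with each pair counted once. The Ighv1 difference was 28.2 points with WT thinned, 27.9 by UMIs and 6.56 by pairs, where Ighv1-26 turned to -1.54. Cells in repeated pairs differed by -12.7 points at 5 UMIs, -28.5 at 10, -13.2 with leaders of at least 80%, -39.0 at 2000 UMIs per cell and -10.1 with kappa genes only. With WT drawn down to equal cells the difference was 6.52, and -2.77 by kappa genes only. The limit of 5 cells per pair stayed fixed while fewer Ring1aKO cells kept a leader (26.5% against 67.5% of WT at 10 UMIs). The values without equal cells therefore partly follow cell numbers. Ighv genes past 2-fold in either direction numbered 77 in plasma cells, and 69 in B cells, all lower, at a limit of 1 UMI. In B cells 17.2% of all genes were lower and 2.06% higher at that limit. The share over all genes was not taken there for plasma cells, so the 77 has no background to be set against. In all, 88 values for these results stayed within their limits, 34 moved outside them and 1 reversed direction. B-cell usage by leading genes of at least 3 UMIs, and B-cell pairs, gave no value. With leaders from 1 UMI, 315 WT and 285 Ring1aKO B cells gave inverse Simpson numbers of 51.1 and 45.2. The log2 difference was -0.18 (-0.55 to 0.19) and the overlap 66.5%. All values with each pair counted once let lambda genes lead. Thinning WT, leaving out the largest pair, leaders from 1 UMI, kappa genes only, drawing WT down and scaling to Ighv UMIs were chosen after seeing the data. With 3′ counts, few variable-gene UMIs per B cell limited what could be seen there.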
